A study of Gossypium hirsutum with 24 samples.

Results

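The comparison described here is that of drought with control bolls of cotton at 5 days post anthesis (dpa, counted from the opening of the flower), in 6 of the 24 arrays of the series. The 3 drought arrays and 3 control arrays were chosen by their labels alone. Every gene that the annotation of the array gives as the only gene of a probe set was covered, 520 in all. The 46 probe sets annotated to several genes were not used for genes. Upland cotton (Gossypium hirsutum cv. Bikaneri Nerma) was field-grown in adjacent plots, 6 for drought and 6 for control, and biotin-labelled RNA was hybridised to the Affymetrix cotton GeneChip. The drought plots got no more irrigation once flowering peaked, and rain was held off by a shelter. Sampling began when soil moisture was down to 19.5%, which was 50% of that in the control plots, after 18 to 19 days, and about 20% was held from then on. The control plots kept their water, and both groups were of the same cultivar, stage and tissue. Whole bolls were frozen, so each value mixes the boll wall, the ovules and the young fibre on them. In such bulk samples fewer cells of a type and less RNA per cell cannot be told apart. The labels call the 3 arrays of a group biological replicates and do not say which plots or how many bolls each came from.

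The cotton fibre is a single cell of the seed coat that starts to grow out of the ovule around the day of flowering. At 5 dpa it elongates fast, which needs a loosening primary wall, turgor built from sugar and potassium, microtubules and actin, new membrane lipids, and hormones such as ethylene, auxin, gibberellin and brassinosteroid. Drought responses of plants are known to run through abscisic acid and ethylene, through transcription factors of the AP2/ERF, NAC, MYB and zinc finger families, and through protective late embryogenesis abundant proteins.

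The deposited values are log2 signals from which the median of the 6 arrays of the stage was taken off for each probe set. A value of 1 in a drought array therefore means a signal 2-fold over that median. Differences between drought and control are kept, while the level of a transcript is not, so whether a marker is present at all could not be checked. Because 6 values are centred on their median, the middle pair mirror each other, and where the groups do not overlap that pair is 1 drought and 1 control array. Each difference is given as drought minus control on the log2 scale, with the standard error (SE) that limma gave, over 3 arrays in each group. The SE pools the spread within the groups of all stages, so it is not the scatter of the 6 values printed for a gene. Calls were made where the p adjusted by Benjamini-Hochberg over all 23973 probe sets tested was under 0.05. "Rose" and "fell" are used of called genes, relative to control.

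The 2 groups were well apart. The SD of the difference between replicate arrays lay between 0.14 and 0.177 over all probe sets, and the median SE of a difference was 0.0952. Of all probe sets 58.2% were called, 24.8% higher and 33.4% lower in drought, and the 3 drought values lay outside the range of the 3 control values at 67.3%, above it at 28.8% and below it at 38.5%. A call or a non-overlap is therefore common in this comparison, and counts of genes below are to be read against these shares. The poly-A spike controls, added RNA that should not vary, averaged −0.028, −0.062 and −0.055 in the drought arrays and 0.23, 0.18 and 0.035 in the control arrays, a difference of −0.196 over 42 probe sets. The signal at the 5′ end of control transcripts less that at the 3′ end, which falls as RNA breaks down, was 0.296 higher in drought arrays over 6 pairs. Whether either had a part in the results was tested only by alternative fits, and not every call that these changed is named below. Scaling on the spike controls moves the median of all differences to 0.14 from −0.052, so small falls depend on the scaling.

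Of the 520 genes, 143 rose, 257 fell and 120 did not pass the test. That is 76.9% called, where 58.2% of all probe sets were, and 35.8% of the calls were rises, where 42.6% of those among all probe sets were. With arrays scaled on the spike controls, 154 genes rose and 159 fell, so 49.2% of the calls were rises. At least 2-fold changes were seen for 65 genes that rose and 70 that fell, where 7.47% of all probe sets rose and 5.25% fell by that much. Large changes ran mostly upwards: of the 39 genes that moved by 2 or more on the log2 scale, 31 rose and 8 fell, and of all 694 such probe sets 603 rose and 91 fell. Between 1 and 2, 34 genes rose and 62 fell, and of all probe sets 1187 rose and 1167 fell. Scaled on the spike controls, 77 genes rose and 47 fell by at least 2-fold, and of all probe sets 2295 rose and 734 fell by that much. The genes had a median difference of −0.17, and all probe sets one of −0.052.

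**Figure D1:**
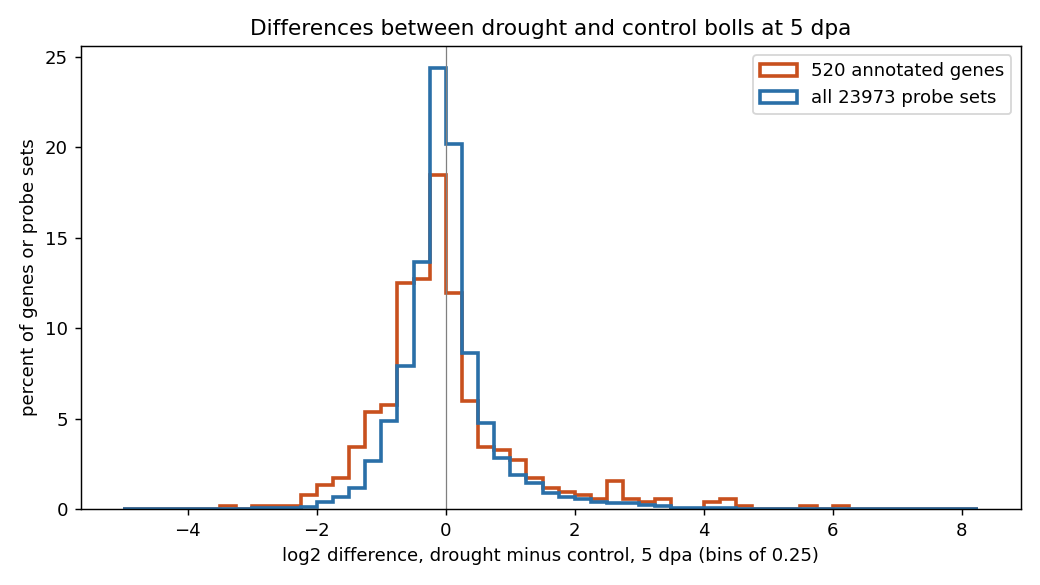
Percent of the 520 annotated genes and of all 23973 probe sets (vertical axis) in bins of their log2 difference, drought minus control at 5 dpa (horizontal axis). The peak lies just below 0, with a longer tail on the right that ends at 6.24 for genes and 7.90 for probe sets.

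Among the 242 genes with an informative name, 75 rose, 116 fell and 51 did not pass. Of the 15 largest rises 10 were those of transcription factor genes. The 15 largest falls included genes of carbon fixation, respiration, sucrose, lipids and the wall, and 2 MYB factors. The highest adjusted p of these 30 genes was 6.34e-06, for SusA1. For 12 of the 30 the probe set has the suffix _s_at, which marks probes that can bind several related transcripts, and for 2, AOX1 and GEPH, it was of antisense design.

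**Figure D2:**
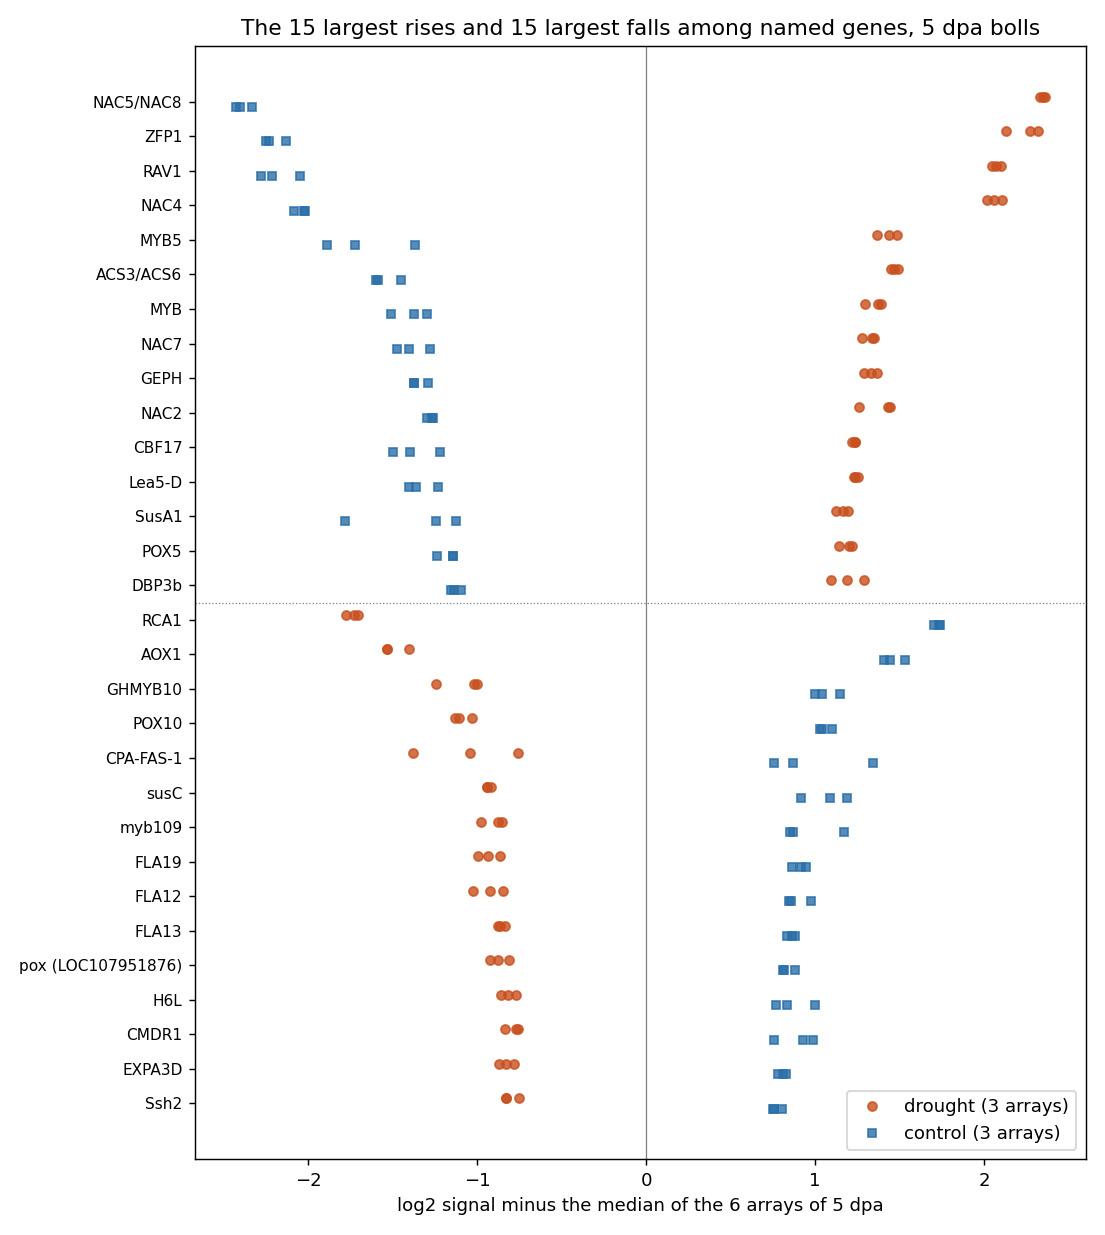
Values of the 15 named genes with the largest rises (top) and the 15 with the largest falls (bottom), as log2 signal minus the median of the 6 arrays of 5 dpa. Each circle is 1 drought array and each square 1 control array, and for every gene shown the groups lie apart, with SusA1 and CPA-FAS-1 spread most.

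NAC factors are plant transcription factors known for roles in senescence, stress responses and wall thickening. Among the 7 NAC genes were 4 that rose and 3 that did not pass, with a list median of 2.65. NAC5/NAC8 (LOC107892421, chromosome A11, 101177311 to 101178925 in the assembly Gossypium_hirsutum_v2.1) had 2.36, 2.35 and 2.33 in drought bolls, against −2.43, −2.40 and −2.33 in control bolls. All 3 drought arrays lay far above all 3 control arrays, a difference of 4.73 ± 0.18 (SE, n = 3), or 26.6-fold. NAC4 (LOC107916546) had 2.06, 2.11 and 2.02 in drought bolls, against −2.08, −2.02 and −2.02 in control bolls, and differed by 4.10 ± 0.17, the groups lying as far apart. NAC7 (LOC107909534) rose by 2.70 ± 0.07 and NAC2 (LOC107962533) by 2.65 ± 0.079, again with no overlap. A second probe set differed by 2.56 for NAC2, by 3.38 for NAC4 and by 1.42 for NAC7. The other 3 NAC genes stayed near 0 and their groups overlapped. NAC6 differed by 0.054 ± 0.08, nst3/NACL2, of the group that in Arabidopsis switches on secondary walls, by 0.077 ± 0.13, and NAC10 by −0.18 ± 0.13. NAC10 had −0.42, −0.26 and 0.20 in drought bolls, against 0.053, 0.033 and −0.033 in control bolls, so 1 drought array stood above the control arrays and the others below. Without that array, drought replicate 3, NAC10 passed the test, at −0.36 (adjusted p = 0.00843).

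AP2/ERF factors include the dehydration-responsive element binding factors (DREB or CBF) and the ethylene response factors (ERF). All 9 of these genes rose, with a median of 1.26, and 8 of the 9 by at least 2-fold. RAV1 (LOC107946446, chromosome D12, 51524868 to 51526472), which joins an AP2 to a B3 domain and is known in Arabidopsis as a brake on growth, had 2.10, 2.04 and 2.07 in drought bolls, against −2.04, −2.28 and −2.21 in control bolls. Its drought values lay in a narrow band far above the control values, and the difference was 4.25 ± 0.25, or 19-fold. Its other probe sets differed by 1.48 and 2.23. Among the DREB-type genes CBF17 (LOC107913841) had 1.22, 1.23 and 1.24 in drought bolls, against −1.22, −1.40 and −1.50 in control bolls. That is a difference of 2.60 ± 0.1 without overlap, although a second probe set of the gene gave 0.37. DBP3b (LOC107890730) rose by 2.32 ± 0.083, DBP2/CBF15 (LOC107957738) by 1.08 ± 0.074 and DREB1C/CBF20 (LOC107898106) by 1.07 ± 0.043. The ERF genes were graded, with ERF7 at 1.80 ± 0.12, ERF8 at 1.25 ± 0.10, ERF9 at 1.15 ± 0.099 and ERF3 at 0.16 ± 0.055. ERF3 was the weakest of the list, with an adjusted p of 0.0152, and lost its call without drought replicate 2 (0.0505) or control replicate 1 (0.0665).

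Zinc finger genes followed, with 4 of 5 higher. ZFP1 (LOC107933034, chromosome D01, 1495290 to 1496707) had 2.32, 2.13 and 2.27 in drought bolls, against −2.24, −2.13 and −2.23 in control bolls. The groups lay far apart, and the difference was 4.44 ± 0.085, or 21.7-fold (adjusted p = 9.09e-20). Di19-1 and Di19-2, relatives of an Arabidopsis gene named for drought induction, rose by 0.80 ± 0.10 and 0.40 ± 0.056, and GZFP rose by 0.43 ± 0.09. COL5-D, a CONSTANS-like gene, stood at 0.08 ± 0.047 and did not pass, while a second probe set of it was called lower, at −0.45. Both WRKY genes rose, WRKY24/WRKY71 (LOC107906829) by 2.13 ± 0.082 and WRKY15 by 0.68 ± 0.14.

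The MYB factors were split, with 4 genes higher and 3 lower in drought, and no gene in between. MYB5 (LOC107912305) had 1.49, 1.37 and 1.44 in drought bolls, against −1.72, −1.89 and −1.37 in control bolls, and rose by 3.09 ± 0.13. MYB (LOC107909337) rose by 2.75 ± 0.1, MYB1 by 0.77 ± 0.072 and MYB5/MYB6 by 0.37 ± 0.053. On the other side GHMYB10 (LOC107951064) had −1.24, −1.02 and −1.0 in drought bolls, against 1.0, 1.14 and 1.04 in control bolls. Its drought arrays were well below 0 and its control arrays all well above it, a difference of −2.15 ± 0.078. GHMYB36 and GHMYB38 fell by 1.31 and 1.07 on the log2 scale.

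Of the 5 homeobox genes and fibre regulators 3 fell, 1 rose and 1 did not pass. myb109 (LOC107961466, chromosome A05, 99472993 to 99473867), a MYB gene known from fibre initiation and elongation, had −0.98, −0.85 and −0.87 in drought bolls, against 0.85, 0.87 and 1.17 in control bolls. The groups did not overlap and differed by −1.86 ± 0.098. HOX3 (LOC107904747), a homeobox gene known to control fibre elongation, had −0.59, −0.92 and −0.43 in drought bolls, against 0.43, 0.50 and 0.59 in control bolls, with more spread among the drought arrays, and differed by −1.15 ± 0.095. GHDEL61, a basic helix-loop-helix gene, fell by 0.57, while GHTTG1, of the WD-repeat type that works with such factors in leaf hairs of Arabidopsis, stood at −0.084 ± 0.053 and did not pass. The homeobox gene HB4 went the other way and rose by 1.42 ± 0.047. Of the 5 MADS-box genes, a family of floral organ regulators, MADS-3/MADS10, SEPALLATA3 and MADS-2 rose by 0.47 ± 0.079, 0.30 ± 0.086 and 0.22 ± 0.062, MADS-9 fell by 0.76, and MADS-1 stood at −0.034 ± 0.048. The rises of SEPALLATA3 and MADS-2 did not pass with the 5′ to 3′ signal difference as covariate (adjusted p = 0.246 and 0.116).

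Ethylene is made from S-adenosylmethionine by ACC synthase (ACS) and then ACC oxidase (ACO), and promotes fibre elongation in cotton ovules. Of the 8 genes of this route and of polyamine synthesis 5 rose, 2 fell and 1 did not pass. ACS3/ACS6 (LOC107947061, chromosome D12, 59080888 to 59083168) had 1.49, 1.46 and 1.45 in drought bolls, against −1.60, −1.59 and −1.45 in control bolls, a difference of 3.01 ± 0.06 or 8.08-fold. The gene named ACS alone rose by 0.85 ± 0.12 at its chosen probe set, and its other probe sets gave 1.16, 1.89 and 4.99. ACS1 stood at −0.049 ± 0.043. Of the ACC oxidase genes ACO3 (LOC107915412) rose by 1.62 ± 0.051, and the 2 genes that share the name ACO1 moved in opposite directions. The ACO1 gene LOC107905899 had 0.72, 0.68 and 0.58 in drought bolls, against −0.59, −0.63 and −0.58 in control bolls, and rose by 1.26 ± 0.063. The ACO1 gene LOC107954048 had −1.05, −0.42 and −0.55 in drought bolls, against 0.57, 0.42 and 0.77 in control bolls, and fell by 1.26. Neither overlapped. SAMDC, the S-adenosylmethionine decarboxylase that feeds polyamines, rose by 0.42 ± 0.039, and SAMS, which makes S-adenosylmethionine, fell by 0.44. The fall of SAMS did not pass on the spike scale (adjusted p = 0.175).

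Genes of gibberellin, auxin and brassinosteroids were also measured. Both gibberellin receptor genes rose, GID1-2 (LOC107924318) by 2.07 ± 0.25 and GID1-4 by 0.90 ± 0.098, and the gene for the DELLA repressor GAI2, which receptors of this kind mark for destruction, fell by 0.71. GAI2 and GID1-4 were read by antisense probe sets. The auxin genes Aux2, Aux4 and Aux3 rose by 0.88 ± 0.06, 0.52 ± 0.065 and 0.40 ± 0.052, the auxin response factor gene ARF1 fell by 0.74, and Aux6 stood at −0.089 ± 0.12 with overlapping groups. All 4 genes of sterol and brassinosteroid synthesis fell. DET2 (LOC107948867), whose steroid reductase makes brassinosteroid and which fibre elongation is known to need, had −0.52, −0.64 and −0.65 in drought bolls, against 0.63, 0.52 and 0.66 in control bolls, and fell by 1.21. The sterol methyltransferase genes SMT2-1, SMT2-2 and SMT1 fell by 1.20, 1.11 and 0.63.

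Among kinases and receptors 5 of 7 genes rose. MPK3 (LOC107959059), a mitogen-activated protein kinase of stress signalling, had 1.04, 1.14 and 0.99 in drought bolls, against −1.05, −0.99 and −0.99 in control bolls. The groups lay apart by 2.07 ± 0.14, and of its 5 other probe sets 4 were also called higher, between 0.66 and 3.52. MAPKKK, MPK3/MPK6, MPK14 and MPK23 rose by 0.95 ± 0.077, 0.48 ± 0.062, 0.46 ± 0.059 and 0.36 ± 0.083. The receptor-like kinase gene grlk5 fell by 0.29, a call that the spike scale removed (adjusted p = 0.608), and SERK1 stood at −0.17 ± 0.1. The calcium genes were split 3 to 3 with small differences. The sensor gene CBL3 rose by 0.81 ± 0.069, the channel gene CNGC2 by 0.46 ± 0.068 and the kinase gene SOS2, of salt tolerance in Arabidopsis, by 0.25 ± 0.044. CBL1 and the annexin genes Anx1 and AnnGh1 fell by 0.49, 0.18 and 0.16. On the spike scale none of those 3 falls passed, and both annexins had a value just above 0. With the 5′ to 3′ signal difference as covariate 4 calcium genes were called higher and 2 lower. Of the small G proteins, switches of vesicle traffic and the cytoskeleton, Rac9 fell by 0.43, which did not pass on the spike scale either, and RacA, Rab7 and Rac13 did not pass, at 0.032 ± 0.057, −0.14 ± 0.067 and −0.22 ± 0.095. Rac13 passed without drought replicate 1 (adjusted p = 0.0236) or control replicate 2 (0.0371).

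The genes for late embryogenesis abundant proteins, hydrophilic proteins of drying seeds and stressed tissue, both rose. Lea5-D (LOC107916177, chromosome D10, 50078108 to 50078898) had 1.23, 1.24 and 1.25 in drought bolls, against −1.40, −1.36 and −1.23 in control bolls. Lea14-A (LOC107922715) had 0.95, 0.92 and 0.93 in drought bolls, against −0.97, −1.0 and −0.92 in control bolls. In each gene the arrays of a group lay close together, and the differences were 2.57 ± 0.055 and 1.90 ± 0.072. The lipoxygenase gene Lox1 (LOC107919998), which oxidises fatty acids for signals such as jasmonate precursors, rose by 1.51 ± 0.048, and MFP, of fatty acid breakdown in peroxisomes, by 1.70 ± 0.17, while the acyl-CoA oxidase gene ACX stood at −0.13 ± 0.16.

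Class III peroxidases are secreted enzymes that can stiffen or loosen walls and make or use hydrogen peroxide. The 11 genes fell on both sides, with 5 higher, 4 lower and 2 that did not pass. POX5 (LOC107914564) had 1.14, 1.22 and 1.20 in drought bolls, against −1.14, −1.14 and −1.24 in control bolls, a difference of 2.36 ± 0.076. A second probe set of POX5 gave 0.46. POX10 (LOC107937645) had −1.11, −1.13 and −1.03 in drought bolls, against 1.10, 1.03 and 1.04 in control bolls, a difference of −2.15 ± 0.11. Neither gene had overlapping groups. pod7, pod1, pod10 and pod5 rose by 1.39 ± 0.083, 1.15 ± 0.063, 0.77 ± 0.10 and 0.71 ± 0.12, and pox (LOC107951876), POX9 and the gene named peroxidase (LOC107905931) fell by 1.70, 1.04 and 0.47. The last of these did not pass on the spike scale (adjusted p = 0.0901). pod3 and pod6 overlapped, at 0.16 ± 0.12 and −0.064 ± 0.092. Of the 9 genes of antioxidant enzymes inside the cell 5 fell, 1 rose and 3 did not pass, and on the spike scale 3 fell and 2 rose. CAT2, a catalase gene, had −0.37, −0.44 and −0.31 in drought bolls, against 0.33, 0.31 and 0.35 in control bolls, and fell by 0.70. The glutathione transferase genes LOC107948407 and LOC107889738 each fell by 0.63, MnSOD, of the mitochondrial superoxide dismutase, by 0.39 and the dehydroascorbate reductase gene DHAR1 by 0.31. The falls of MnSOD and DHAR1 did not pass on the spike scale, and that of MnSOD did not without drought replicate 3 (adjusted p = 0.0716) or control replicate 3 (0.0653). The ascorbate peroxidase gene gAPX rose by 0.28 ± 0.045, and FeSOD, CSD2 and sAPX did not pass, at 0.27 ± 0.12, −0.073 ± 0.039 and −0.16 ± 0.10, of which FeSOD passed on the spike scale, at 0.46 (adjusted p = 0.00549).

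The largest falls of named genes were those of RCA1 and AOX1. RCA1 (LOC107942112, chromosome A10, 114858394 to 114861427) codes for Rubisco activase, which keeps the enzyme of carbon fixation active in green tissue. It had −1.73, −1.71 and −1.77 in drought bolls, against 1.73, 1.74 and 1.71 in control bolls. The arrays of a group lay close together, and the groups differed by −3.46 ± 0.13, or 11-fold lower in drought. AOX1 (LOC107939301) codes for the alternative oxidase of mitochondria, which takes electrons past the main respiratory chain. It had −1.53, −1.53 and −1.40 in drought bolls, against 1.53, 1.40 and 1.44 in control bolls, a difference of −2.95 ± 0.11, though from an antisense probe set.

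Sucrose synthase splits sucrose into fructose and the sugar nucleotide that feeds cellulose. Its 3 genes did not move together. SusA1 (LOC107910106) had 1.16, 1.12 and 1.20 in drought bolls, against −1.24, −1.12 and −1.78 in control bolls. The control array of replicate 3 stood lower than the others. The difference of 2.54 had an SE of 0.38, pooled over all stages, and was the least certain of the large rises. A second probe set of it, of antisense design, gave 0.75. susC (LOC107901030) had −0.94, −0.92 and −0.94 in drought bolls, against 0.92, 1.19 and 1.09 in control bolls, and fell by 2.0, and Sus1, the gene known from fibre growth, fell by 0.40 (adjusted p = 0.199 on the spike scale). Genes of turgor and ion transport went both ways too. NHX1 (LOC107891968), a vacuolar sodium/proton exchanger, had 0.80, 0.85 and 0.87 in drought bolls, against −0.86, −0.80 and −0.89 in control bolls, and rose by 1.69 ± 0.064. KT (LOC107926078), a potassium transporter, had 0.57, 0.57 and 0.57 in drought bolls, against −0.57, −0.57 and −0.58 in control bolls, and rose by 1.15 ± 0.049. VP, the vacuolar proton pyrophosphatase, rose by 0.41 ± 0.061. The aquaporin gene NIP6.1 fell by 1.28. PEPC1, which makes malate for turgor, and VATE, of the vacuolar proton pump, fell by 0.16 and 0.20, and neither passed on the spike scale. DET3, of the same pump, stood at −0.052 ± 0.072.

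Genes that build and loosen the elongating wall were mostly lower. All 4 expansins, proteins that loosen the wall under acid, fell. EXPA3D (LOC107904848, chromosome D05, 28073141 to 28074489) had −0.83, −0.87 and −0.78 in drought bolls, against 0.81, 0.83 and 0.78 in control bolls. Its groups lay apart by −1.63 ± 0.10, and its second probe set gave −1.67. EXP1 (LOC107914543), an expansin gene of fibres, fell by 1.18, EXPA4 by 1.0 and EXPA11A by 0.95. The chosen probe sets of EXP1 and susC carry the same array cluster number although the annotation gives them to different genes, so those 2 values may not be separate measurements.

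Xyloglucan endotransglucosylases (XTH) cut and rejoin the tethers between cellulose fibrils, and pectin enzymes soften the middle layer. Of these 7 genes 4 fell, 1 rose and 2 did not pass. XTH3 (LOC107913353) rose by 1.48 ± 0.098, while XTH and XTH1 fell by 0.91 and 0.48. XTH had −0.80, −0.47 and −0.18 in drought bolls, against 0.65, 0.18 and 0.47 in control bolls, the widest spread of the list. PGIPL, like inhibitors of polygalacturonase, fell by 0.81 and the pectate lyase gene Pel by 0.26, a call with an adjusted p of 0.0408 that was lost without drought replicate 2 (0.108), drought replicate 3 (0.114) or control replicate 2 (0.108) and on the spike scale (0.775), and its second probe set gave −1.76. G9, a polygalacturonase, and CEL, an endoglucanase, did not pass at −0.11 ± 0.076 and −0.14 ± 0.065.

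Fasciclin-like arabinogalactan proteins (FLA) are glycoproteins of the cell surface and wall. Of the 12 genes 7 fell, 4 did not pass and 1 rose. FLA19 (LOC107954983) had −0.93, −0.86 and −0.99 in drought bolls, against 0.92, 0.86 and 0.94 in control bolls. FLA12 (LOC107945624) had −0.85, −1.02 and −0.92 in drought bolls, against 0.85, 0.85 and 0.98 in control bolls. FLA13 (LOC107911922) had −0.84, −0.86 and −0.88 in drought bolls, against 0.88, 0.84 and 0.86 in control bolls. These 3 genes lay at about the same distance, with differences of −1.84 ± 0.11, −1.82 ± 0.063 and −1.72 ± 0.08, although a second probe set of FLA12 gave −0.27 and was not called, and both its probe sets have a suffix for shared probes. FLA15, FLA11, FLA14 and FLA6 fell by 1.07, 0.92, 0.73 and 0.40, the last not passing on the spike scale (adjusted p = 0.234). FLA4 (LOC107946184) stood against them. It had 0.57, 0.68 and 0.55 in drought bolls, against −0.60, −0.61 and −0.55 in control bolls, and rose by 1.19 ± 0.055, from an antisense probe set. FLA16, FLA7, FLA18 and FLA2 did not pass, at 0.19 ± 0.11, −0.081 ± 0.096, −0.13 ± 0.15 and −0.30 ± 0.13, and FLA2 passed without drought replicate 3 (adjusted p = 0.0358). Of the other wall proteins, E6, an abundant fibre transcript, had −0.62, −0.52 and −0.61 in drought bolls, against 0.52, 0.53 and 0.68 in control bolls and fell by 1.17. H6L, a proline-rich protein gene, fell by 1.69, and GRPL1 stood at 0.0065 ± 0.14.

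Enzymes of cellulose and of the sugar nucleotides of the wall followed with smaller falls, 6 of 8 genes. GalT1, CslD1 and CesA1, the last a cellulose synthase of the secondary wall, fell by 0.75, 0.74 and 0.55, and GAE2, UGD2 and CTL1 by 0.38, 0.21 and 0.21. On the spike scale 2 of these 6, GalT1 and CslD1, passed. With the 5′ to 3′ signal difference as covariate 4 genes of the list were called lower. CTL1 lost its call without drought replicate 2, drought replicate 3 or control replicate 3 (adjusted p = 0.0555, 0.119 and 0.136), and UGD2 without control replicate 3 (0.0533). RHM3 and GAE3 stood at −0.018 ± 0.048 and 0.056 ± 0.068.

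Microtubules guide the cellulose fibrils and actin carries vesicles to the growing tip. None of these 16 genes rose. Of the 10 tubulin and kinesin genes 8 fell. BTub4 (LOC107936697), a beta-tubulin, had −0.71, −0.78 and −0.75 in drought bolls, against 0.77, 0.71 and 0.73 in control bolls, a difference of −1.48 ± 0.055 without overlap. The beta-tubulin genes BTub1/BTub2 and BTub3 fell by 1.30 and 1.05, and the alpha-tubulin genes TubA4/TUA10, TubA2 and TubA1/TUA6 by 0.82, 0.69 and 0.37. KTN1, of the microtubule-severing katanin, and the kinesin gene KIS13A1 fell by 0.57 and 0.43, and the kinesins KCH1 and kch2 stood at −0.12 ± 0.14 and −0.22 ± 0.13. All 6 actin genes fell, CAP, whose protein binds actin, by 0.82, ACT7/ACT8/ACT9 by 0.69, and ACT4, ACT11, ACT1/ACT2/ACT5 and ACT6/ACT10/ACT12/ACT14 by 0.43, 0.40, 0.33 and 0.30. On the spike scale 6 tubulin and kinesin genes and 2 actin genes, CAP and ACT7/ACT8/ACT9, fell.

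**Figure D3:**
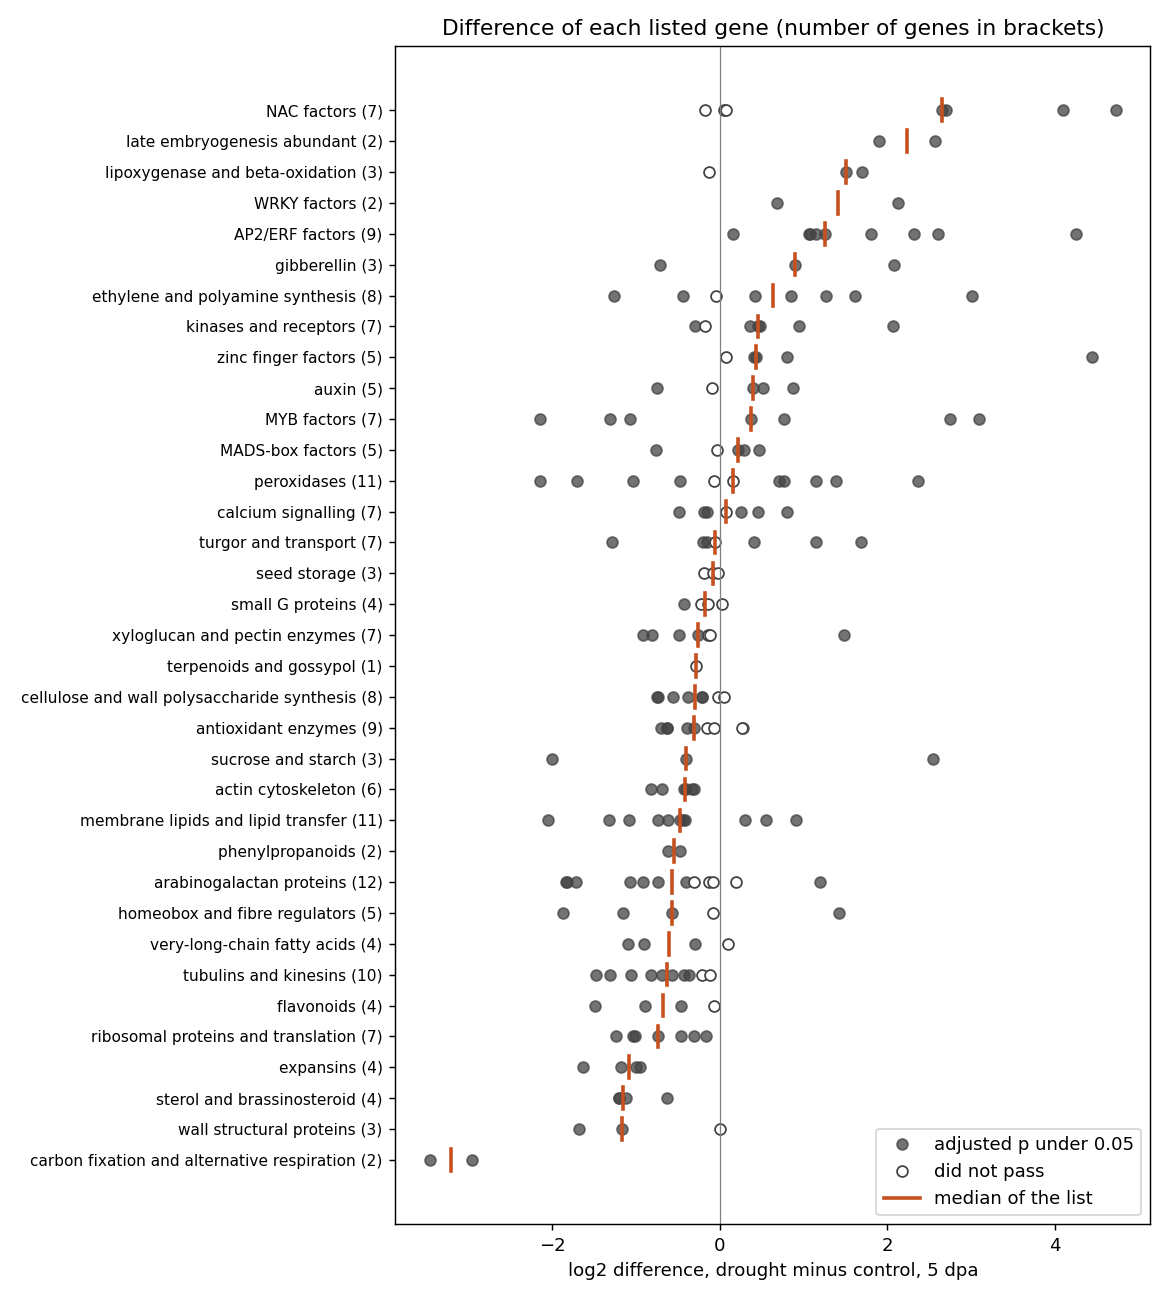
Log2 difference, drought minus control at 5 dpa (horizontal axis), of each of the 197 genes in 35 lists, ordered by list median. Filled points passed the test, open points did not, and bars mark list medians. The NAC, late embryogenesis abundant and AP2/ERF lists lie to the right and the expansin, sterol and translation lists to the left, while the MYB, peroxidase and sucrose lists hold points on both sides.

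Very-long-chain fatty acids, whose synthesis by ketoacyl-CoA synthases (KCS) cotton fibres are known to need, had 3 of 4 genes lower. KCS12 and FDH/KCS45 fell by 1.09 and 0.90, KCS38 by 0.30 (adjusted p = 0.629 on the spike scale), and KCS10 stood at 0.099 ± 0.10. All 4 probe sets of KCS38 were called lower on the deposited scale, from −1.02 to −0.30. Of the 11 genes of membrane lipids and lipid transfer 8 fell and 3 rose. CPA-FAS-1 (LOC107933118), a cyclopropane fatty acid synthase gene, had −1.04, −0.75 and −1.38 in drought bolls, against 0.75, 0.87 and 1.34 in control bolls. Its arrays were more scattered than those of other genes, but the groups did not overlap and differed by −2.05 ± 0.18. CPA-FAS-2 and CPA-FAS-3 fell by 1.32 and 1.08, so all 3 cyclopropane synthase genes were lower. The plastid fatty acid genes KASIII, KASII, sad1 and FatB1 fell by 0.74, 0.47, 0.44 and 0.42, and ACBP, of an acyl-CoA carrier, by 0.62. On the spike scale KASII, sad1 and FatB1 did not pass. Those that rose were pldd, a phospholipase D gene of stress signalling, by 0.91 ± 0.057, LTP3/FSLTP2, a lipid transfer protein gene of fibres, by 0.56 ± 0.071, and the desaturase gene FAD78-1 by 0.30 ± 0.091.

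Flavonoid genes were lower where they passed. CHS6, CHS2 and CHS3 code for chalcone synthase, the entry to the pathway, and the first 2 of these fell by 1.49 and 0.46 while CHS3 stood at −0.064 ± 0.05. DFR, the reductase before the tannins, had −0.52, −0.41 and −0.46 in drought bolls, against 0.43, 0.47 and 0.41 in control bolls, and fell by 0.90. The fall of CHS2 did not pass on the spike scale (adjusted p = 0.309), with the 5′ to 3′ covariate (0.317) or without control replicate 3 (0.0717). CCR1 and CCoAMOT2, of lignin precursors, fell by 0.62 and 0.48, and cdn1, whose cadinene synthase leads to gossypol, stood at −0.29 ± 0.15.

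All 7 genes of ribosomes and translation fell. RPS16 (LOC107908898), a protein of the small ribosomal subunit, had −0.61, −0.62 and −0.55 in drought bolls, against 0.55, 0.68 and 0.70 in control bolls, a difference of −1.24 ± 0.085. RPL44, RPS4 and RPL37A fell by 1.03, 1.01 and 0.46. The elongation factor genes EF1A7/EF1A8, EF1A2 and EF1A1/EF1A4 fell by 0.74, 0.31 and 0.17. On the spike scale 4 of the 7 fell.

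The markers of other tissues gave few points. Of 19 genes taken as markers of young fibre, 12 fell, 2 rose and 5 did not pass, with a median of −0.92. They were E6, EXP1, EXPA3D, HOX3, myb109, LTP3/FSLTP2, Rac13 and all 12 FLA genes. The FLA genes were taken by name and had been counted above, with 7 lower, 1 higher and 4 not called. Whether each of them marks fibre was not tested. Green tissue was represented by RCA1 alone and pollen by G9 alone, at −3.46 and −0.11. Of 5 seed genes the storage protein genes vicB, LegA and LEGB did not pass, at −0.083 ± 0.087, −0.19 ± 0.11 and −0.019 ± 0.065, and Lea5-D and Lea14-A rose as given above. LegA passed without drought replicate 3, at −0.29 (adjusted p = 0.0338). The xylem markers had no member. Summed levels of these markers could not be formed from centred values, and their part in the differences was not tested.

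The 49 named genes outside the lists comprised 11 that rose, 22 that fell and 16 that did not pass. GEPH (LOC107918357) had 1.33, 1.29 and 1.37 in drought bolls, against −1.37, −1.37 and −1.29 in control bolls, and rose by 2.68 ± 0.089, from an antisense probe set. Glp1, a germin-like protein gene, rose by 1.13 ± 0.05, the transporter gene MFS by 0.94 ± 0.057, GOX by 0.80 ± 0.051 and PAP10, of a purple acid phosphatase, by 0.66 ± 0.07. CBP3, TC, WD1521, PTAC, 14-3-3L and HrBP1 rose by between 0.14 and 0.44, and 14-3-3L, HrBP1 and PTAC lost their calls without either of control replicates 1 and 2, 14-3-3L and PTAC also without drought replicates 1 or 3, and HrBP1 without drought replicates 1 or 2 (highest adjusted p 0.0797, 0.0895 and 0.137). Among those that fell, CMDR1 (LOC107942025) had −0.77, −0.76 and −0.84 in drought bolls, against 0.76, 0.93 and 0.99 in control bolls, a difference of −1.68 ± 0.09, and Ssh2 (LOC107953590) had −0.83, −0.83 and −0.75 in drought bolls, against 0.75, 0.75 and 0.80 in control bolls, a difference of −1.57 ± 0.067. GLU, a glucanase gene by its name, fell by 1.25, PAP1 by 1.09, Pat1 by 1.02 and ManA2 by 0.96. The genes f15 and CBP2, lower by 0.18 and 0.20, had values just above 0 on the spike scale. The histone genes moved little, with HIS2B lower by 0.31 (adjusted p = 0.596 on the spike scale) and HIS3 at −0.02 ± 0.17.

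Of the 278 genes without an informative name 68 rose, 141 fell and 69 did not pass, and their median of −0.17 was that of the named genes. Of the 16 that moved by 2 or more 13 rose and 3 fell. The largest rise of any gene was that of LOC107896656 (chromosome A11, 26269300 to 26270006), with 3.11, 3.16 and 3.03 in drought bolls, against −3.05, −3.03 and −3.33 in control bolls, a difference of 6.24 ± 0.10, or 75.4-fold. A second probe set of this gene gave 1.23. LOC107947008 and LOC107915836 rose by 5.57 ± 0.099 and 4.28 ± 0.086, and LOC107962841 by 4.16 ± 0.16. A second probe set of LOC107915836 gave 0.75. LOC107947118 (chromosome A12, 105592657 to 105597015) had −1.36, −1.31 and −1.21 in drought bolls, against 1.25, 1.24 and 1.21 in control bolls, and fell by 2.52, followed by LOC107942981 at −2.32 ± 0.12 and LOC107889256 at −2.10 ± 0.056. A second probe set of LOC107947118 gave −0.25 and was not called. Larger changes lay among the 23230 probe sets with no gene. The 2 largest rises there were 7.90 ± 0.13 and 7.31 ± 0.11, and the 2 largest falls were −4.53 ± 0.079 and −4.08 ± 0.16. Of all sense probe sets 66.8% were called, and of antisense ones 47.6%.

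The same gene can be read by several probe sets, which was so for 122 genes. Of the 75 with 2 or more called probe sets, 68 had all calls in 1 direction and 7 had calls in both. Those 7 were FatB1 at −0.42 and 0.33, VATE at −0.20 and 0.33, and the unnamed genes LOC107900642, LOC107924022, LOC107925288, LOC107931327 and LOC107950133. Other genes had probe sets that differed in the call, of which some are given here. LEGB had 1 at −0.019 and 1, called, at −0.68, paC1 had 0.13 and, called, 1.36, SERK1 had −0.17 and, called, −0.68, and LTP3/FSLTP2 had 0.56, called, and −0.20. Among genes reported above as called, TubA4/TUA10 and FLA14 had 1 of 3 probe sets called, over ranges of −0.82 to −0.069 and −0.73 to 0.037. CesA1, KASII, CBL1 and MAPKKK had 1 of 2 called, the other standing at −0.11, 0.012, 0.0061 and −0.040. Aux4 and CHS2 had 2 of 4 called, over ranges of −0.026 to 0.52 and −0.65 to −0.069. The value given for a gene is that of its chosen probe set.

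The drought effect at 5 dpa was compared with that at 0, 10 and 20 dpa, measured on other arrays. Of all probe sets 44.2% were called at 0 dpa, 60.3% at 10 dpa and 60.0% at 20 dpa. The difference of the effects was called for 385 genes (74.0%) against 0 dpa, for 350 (67.3%) against 10 dpa and for 380 (73.1%) against 20 dpa, where 53.3%, 46.6% and 57.9% of all probe sets were called. Genes called in opposite directions at 5 dpa and another stage, with the difference called, numbered 97 for 0 dpa, 34 for 10 dpa and 124 for 20 dpa, or 18.7%, 6.54% and 23.8%, against 11.6%, 5.79% and 14.9% of all probe sets. The count for 10 dpa was thus close to that background. These comparisons depend on the scaling. The spike controls were higher in drought than in control by 1.07 at 10 dpa and 0.92 at 20 dpa, against −0.196 at 5 dpa, and scaling on them moves the median of all differences to −1.09 at 10 dpa and −0.99 at 20 dpa. On that scale the differences called were 51.5%, 93.7% and 86.3% of the genes against 0, 10 and 20 dpa, where 40.3%, 94.5% and 87.3% of all probe sets were called. The opposite calls were then 12.5%, 16.0% and 26.0% of the genes, against 7.65%, 18.7% and 21.7% of all probe sets. The tissue differs as well as the age, since bolls were used at 0 and 5 dpa and ovules with fibre at 10 and 20 dpa.

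Several regulators that rose at 5 dpa had a drought effect near or below 0 on the day of flowering. ZFP1 differed by −2.34 at 0 dpa, 4.44 ± 0.085 at 5 dpa, 6.97 at 10 dpa and 0.94 at 20 dpa, the last being 0.018 and no longer called on the spike scale. NAC5/NAC8 differed by −0.13, 4.73 ± 0.18, 7.71 and −2.26 at these stages, so it was larger at 10 dpa, with 5 minus 10 dpa at −2.98 ± 0.25 (−1.71 on the spike scale), and lower in drought at 20 dpa. The effect at 5 dpa exceeded that at 0 dpa by 4.35 ± 0.24 for NAC4, 3.66 ± 0.099 for NAC7 and 3.23 ± 0.36 for RAV1. RAV1 was already higher in drought at 0 dpa, by 1.02. The peroxidase genes POX5 and pod7 stood at −1.90 and −3.48 at 0 dpa, rose at 5 dpa as given above, and stood at −3.58 and −2.15 at 20 dpa. RCA1 and AOX1 were higher in drought at 0 dpa, by 0.37 and 1.61, and their effects at 5 dpa lay below those of each other stage. With spike scaling RCA1 at 0 dpa was not called (0.16, adjusted p = 0.502), and the difference of AOX1 at 5 dpa from 20 dpa did not pass (adjusted p = 0.312). G9, not called at 5 dpa, was 7.96 higher at 0 dpa.

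Of the 311 genes called in the same direction at 5 and 10 dpa, 169 were further from 0 at 10 dpa and 48 at 5 dpa with the difference called. Of all 9353 such probe sets these were 3846 and 1477. On the spike scale they were 159 and 21 of 207 genes, and 3461 and 691 of 4888 probe sets. pod10 stood at 5.88 at 10 dpa and 0.77 ± 0.10 at 5 dpa, the ACO1 gene LOC107905899 at 4.21 and 1.26 ± 0.063, and Lox1 at 4.34 and 1.51 ± 0.048. EXPA11A stood at −4.0 at 10 dpa and −0.95 ± 0.12 at 5 dpa, and FLA13 at −4.38 and −1.72 ± 0.08. pod5 and GHMYB36 went opposite ways, pod5 at 0.71 ± 0.12 at 5 dpa and −2.0 at 10 dpa, and GHMYB36 at −1.31 ± 0.10 and 1.30, although the value of GHMYB36 at 10 dpa was 0.23 and not called on the spike scale (adjusted p = 0.185).

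A group of 75 genes had an effect at 5 dpa that differed from that of every other stage in the same direction, 14.4% of the genes where 11.4% of all probe sets did so. In 41 of them (7.88%, against 5.16% of all probe sets) the effect was highest at 5 dpa, and 34 of these were called higher in drought there. DBP2/CBF15 was among them, at 1.08 ± 0.074 against −0.31, −0.13 and −0.043 at 0, 10 and 20 dpa. KT, Glp1, FLA4, PAP10, Aux3 and LTP3/FSLTP2 were others, and among the unnamed genes LOC107898995 stood at 3.26 at 5 dpa and −2.35, 0.038 and 0.18 at 0, 10 and 20 dpa. All 41 were also highest at 5 dpa on the spike scale. That scale raises the effect at 5 dpa against each other stage, so this was no separate check. On it 139 genes (26.7%) were highest at 5 dpa, against 27.7% of all probe sets, so the share above background depends on the scaling. In the other 34 genes (6.54%, against 6.24% of all probe sets, so close to that background) the effect was lowest at 5 dpa, and 33 of these were called lower. This count depends on the scaling, since on the spike scale 2 of the 34 were lowest at 5 dpa, RCA1 and LOC107940712. The 34 include RCA1, AOX1, CPA-FAS-1, CPA-FAS-3, H6L, myb109, GHDEL61, BTub4, TubA4/TUA10, RPS16, RPS4 and RPL44. RPS16 stood at −1.24 ± 0.085 at 5 dpa, against −0.039, −0.35 and 0.28 at 0, 10 and 20 dpa.

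**Figure D4:**
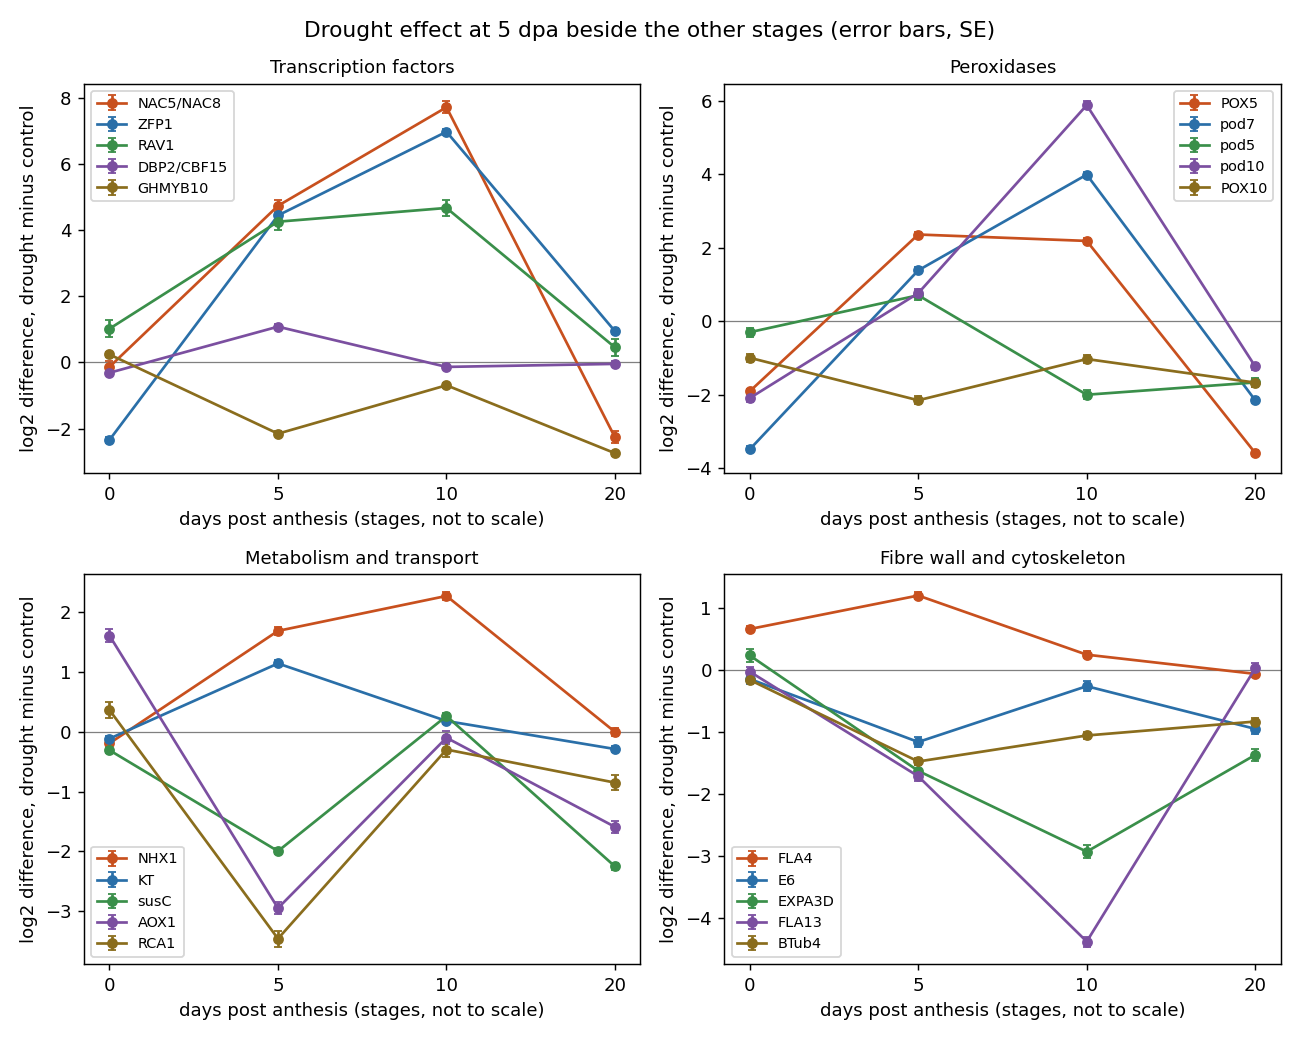
Log2 difference, drought minus control, with its SE (vertical axes) at 0, 5, 10 and 20 dpa (horizontal axes) for 20 genes in 4 groups. ZFP1, POX5 and pod7 are below 0 at flowering and above 0 at 5 dpa, and RCA1 and AOX1 reach their lowest point at 5 dpa.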

How the data were processed

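RNA of drought and control bolls was read on Affymetrix cotton arrays, 3 for each group and stage, and the table of 24132 probe sets was used as the authors deposited it. The deposited log2 values were made by RMA, per the submitters' processing notes; RMA gives log2 values, and the sources used here give no version of it. In the file each probe set has a median of 0 over the 6 arrays of 5 dpa, to within 5e-07, so it was centred within the stage, a step that is not described. No level is left, so a filter on dim probe sets or a trend in the moderation could not be used, and an array's precision is limited by the number of arrays.

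The 159 control probe sets (prefixes AFFX, RPTR and GhirRNA) were left out and 23973 tested with limma 3.58.1 in R 4.3.3, as 8 group means over all 24 arrays (16 residual degrees of freedom), two-sided, with differences of effects between stages as contrasts. Tables and figures were made with Python 3.11.15, pandas 2.3.3 and matplotlib 3.10.9. The fit was tested on simulated data. Names came from the annotation of the array and the RefSeq table of Gossypium_hirsutum_v2.1: 697 probe sets had 1 gene, 46 several and 23230 none. Each gene was given 1 probe set without regard to its values, sense before antisense and suffix _at before _a_at, _s_at and _x_at. For 298 of the 520 genes that probe set has the suffix _s_at or _x_at, and for 49 it is antisense. Lists hold 154 genes matched by a name pattern and 43 added by name.

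The members and lists were chosen with earlier results of these data known. Named genes are the 15 largest rises and falls among named genes without overlap, in each list all members of up to 4 or the 4 with the smallest p and those against the majority, genes with opposite calls, the 2 largest rises and falls of all probe sets, and the 10 with the largest differences from 0 and from 10 dpa. Other list members, the unnamed genes and the genes of the stage plot were picked with their values in view. The p-values set each difference against the spread between the 3 arrays of a group. That spread was pooled over the groups of all stages and moderated across probe sets by limma. Replicate numbers are shared by the groups, but deviations of arrays with the same number correlated at −0.0083, −0.032 and −0.0087. Those of arrays with different numbers correlated at −0.015 to 0.024. No shared deviation was seen and the arrays were not treated as pairs. These values cannot show whether plots or sampling were paired, which the labels do not say. No gene sequences were used here, and the promoter search that had been planned was not run.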

Additional observations from a re-analysis of the deposited data

Results flagged for a closer look

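The drought effect at 5 dpa differed from that of another stage, by the limma test of the difference itself, for genes called in opposite directions at both: 97 genes for 0 dpa, 34 for 10 dpa and 124 for 20 dpa. These are 18.7%, 6.54% and 23.8% of the genes, against 11.6%, 5.79% and 14.9% of all probe sets, so the count for 10 dpa is close to that background. With spike scaling they are 12.5%, 16.0% and 26.0%, against 7.65%, 18.7% and 21.7%. The tissue differs between bolls at 5 dpa and ovules at 10 and 20 dpa, and its part in these differences was not tested.

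The differences of the effects below are 5 dpa minus the other stage, on the log2 scale. Set against 0 dpa, the effect was higher at 5 dpa for ZFP1 by 6.78, for pod7 by 4.87, for NAC5/NAC8 by 4.87, for NAC4 by 4.35, for POX5 by 4.26, for NAC7 by 3.66 and for RAV1 by 3.23. It was lower for G9, at −8.07, for AOX1, at −4.56, and for RCA1, at −3.83. G9 did not pass the test at 5 dpa, so its difference comes from 0 dpa.

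Set against 10 dpa, the effect was lower at 5 dpa for pod10, at −5.11, RCA1, at −3.17, NAC5/NAC8, at −2.98, the ACO1 gene LOC107905899, at −2.95, AOX1, at −2.85, Lox1, at −2.83, and GHMYB36, at −2.61. It was higher for EXPA11A, at 3.05, pod5, at 2.71, and FLA13, at 2.66, of which EXPA11A and FLA13 fell at both stages and by more at 10 dpa. These 10 differences kept their sign and their call on the spike scale, the lower ones lying between −3.85 for pod10 and −1.35 for GHMYB36 and the higher ones between 3.93 for FLA13 and 4.31 for EXPA11A.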

How the results depend on the processing

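The number of genes called, 400, ran from 390 to 393 with an array left out, 389 with the 5′ to 3′ signal difference as covariate and 413 with the 6 arrays of 5 dpa alone, and robust moderation changed no call of the 249 named results. The scale of the arrays mattered most. On the scale of the spike controls there were 10573 calls among probe sets, 64.1% of them higher, and the number lower was 3794 for probe sets (8016 without that scaling), 734 at least 2-fold (1258) and 159 for genes (257). The lists of 3 or more genes with most members lower numbered 6 (15), and the differences called were 22653 against 10 dpa (11160) and 20939 against 20 dpa (13881). Of the 249 named results 34 lost their call on that scale and 3 gained one, FeSOD (0.46), BC1 (0.37) and paC1 (0.32). AnnGh1 (0.040), Anx1 (0.014), CBP2 (0.0013), f15 (0.015), EF1A1/EF1A4 (0.029) and PEPC1 (0.039) changed sign without passing. With the covariate 10 of the 249 named results lost their call and 5 gained one, and GRPL1 turned to −0.31 (adjusted p = 0.0382). The mean over all probe sets of a gene turned VATE to 0.064 and LOC107900642 to −0.011. These were the reversals found, and their cause was not tested.

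With an array left out, the ranges were 13181 to 13261 probe sets called, 5605 to 5716 higher, 7465 to 7618 lower, 1761 to 1814 and 1245 to 1294 at least 2-fold higher and lower, 138 to 143 genes higher and 247 to 253 lower, 11 to 15 lists mostly lower and 10 mostly higher. Differences called ranged from 12058 to 12267, 10471 to 10663 and 13262 to 13492 against 0, 10 and 20 dpa. Genes whose probe set has neither suffix for shared probes numbered 222, of which 162 were called (73.0%), 67 higher and 95 lower, since fewer genes were tested. With the replicate block 13707 probe sets and 396 genes were called, on 8 residual degrees of freedom, and 3 named results lost their call; deviations of arrays with the same number did not go together. The difference between stages could not be fitted on the 6 arrays alone, and moderation with a trend was not run because no level is given.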
